A study of Bos taurus with 6 samples.

Results

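In 322 autosomal regions of the bovine genome, peaks were called in 3, 4 or 5 of 6 ChIP-seq libraries from blastocysts, which places them between the regions seen in a single library and those seen in every library. They were selected on the peak calls of all 6 libraries. Peaks that overlapped by at least 1 bp were joined into regions, and a region was kept when it lay on chromosomes 1 to 29, started at position 1000000 or later and held peaks of exactly 3, 4 or 5 lists. Regions called in both Input libraries and in only 1 of the 4 immunoprecipitated libraries were left out. The 322 members made up 5.73% of the 5619 regions of the whole series and 6.95% of the 4633 autosomal regions that met the start limit. Because the calls chose the members, counts of calls and the scores of the called peaks are given as descriptions, with no test.

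The study asked which genomic regions MAT2A associates with in the bovine blastocyst. Embryos were produced in vitro and collected on day 8 in 2 pools of 669 and 677 blastocysts, each a mixture of whole embryos. The sheared chromatin of each pool gave 1 Input library (no immunoprecipitation), 1 MAT2A-ChIP library (precipitated with a monoclonal mouse anti-MAT2A antibody) and 1 IgG control library (a mouse IgG isotype control), so that n was 2 for each library type and the replicate number marked the pool. No treatment or genotype distinguished the groups, and since the files hold peaks and no expression values, the labelled tissue could not be checked against marker genes.

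MAT2A is the catalytic subunit of the methionine adenosyltransferase that is made in most tissues, and it joins methionine with ATP to give S-adenosylmethionine, the methyl donor for DNA, histones and many other substrates. Part of the protein is found in the nucleus, where it has been described in complexes with chromatin regulators. In ChIP-seq, Input chromatin shows how readily each stretch of the genome is recovered, sequenced and aligned before any antibody is added, and an isotype control antibody shows what adheres to the beads without recognition of the target. A place that is specific for an antibody target would therefore carry a peak with that antibody and none in Input or IgG control.

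The lists held between 1788 and 2094 peaks per library. Each peak carries a score from the peak caller MACS, its p-value expressed as -10 log10(p), with a floor at 50. Read counts are not part of the lists, so the depth behind a peak is unknown, and a library without a peak in a region may still hold reads there that stayed under the threshold. A score also grows with the depth of its library, and for this reason scores were ranked only within their own list, where the percentile of a peak is the percentage of that list with a lower score. All positions are on bosTau8 and count from 1. No sequence is printed, as the bosTau8 genome was not used here.

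Of the members, 62 were called in 3 libraries, 132 in 4 and 128 in 5. On both sides of this range lay 264 autosomal regions called in 2 libraries and 435 called in all 6, while 3498 were called in 1 library and 114 had been left out as called in both Input and 1 other library. Start positions also had an edge. The members nearest to it were chr14:1002652-1002912 and chr14:1016818-1016981, both called in 4 libraries, and the nearest region outside it was chr14:994674-994901, called in 4 libraries as well. In all, 61 regions met every other part of the rule but started before the limit. When 1 library was left out, regions called in 3 or 4 of the other 5 were counted. Their number was 192 without MAT2A-ChIP 2, 209 without IgG control 1, 210 without MAT2A-ChIP 1 and 215 without IgG control 2. It was 290 and 298 without Input 1 and Input 2, where the exclusion by both Input calls can no longer apply. The rule thus sets part of the gap between these counts, and nothing is read from it.

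Most members carried peaks in Input chromatin and in both kinds of immunoprecipitate. Input 1 had a peak in 272 members (84.5%, 95% Wilson interval 80.1 to 88%, which like the others below covers counting error only) and Input 2 in 252 (78.3%). Of all 4633 autosomal regions, by comparison, 29.8% were called in Input 1 and 26.6% in Input 2. MAT2A-ChIP 1 had a peak in 222 members (68.9%) and MAT2A-ChIP 2 in 196 (60.9%), where the background was 33.7% and 29.0%. IgG control 1 had a peak in 204 members (63.4%) and IgG control 2 in 208 (64.6%), where the background was 31.4% and 29.4%. The rule demanded calls in several libraries and so set all 6 shares above the background, from which nothing is read. The Wilson intervals treat members as independent draws, although these calls chose them and 202 (62.7%) lay within 100 kb of another member. They do not measure variation between the pools. At least 1 peak with each antibody was present in 286 members (88.8%), compared with 16.3% of all autosomal regions, which the demand for 3 or more calls largely sets. Within the members, the antibody against MAT2A and the isotype control had peaks about equally often, and the MAT2A-ChIP replicates stood further apart than the means of the antibodies did.

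Calls in both replicates of a type were most frequent for Input. Both Input libraries had a peak in 219 members (68%, interval 62.7 to 72.9%, background 18.6%). Both MAT2A-ChIP libraries had one in 110 members (34.2%, interval 29.2 to 39.5%, background 12.0%) and both IgG control libraries in 112 (34.8%, interval 29.8 to 40.1%, background 12.0%). Replicated calls were thus about as frequent with the control antibody as with the MAT2A antibody. Of the members called in at least 1 library of a type, 71.8% were called in both for Input (219 of 305), 35.7% for MAT2A-ChIP (110 of 308) and 37.3% for IgG control (112 of 300). Over all autosomal regions these shares were 49.3%, 23.7% and 24.7%.

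**Figure D1:**
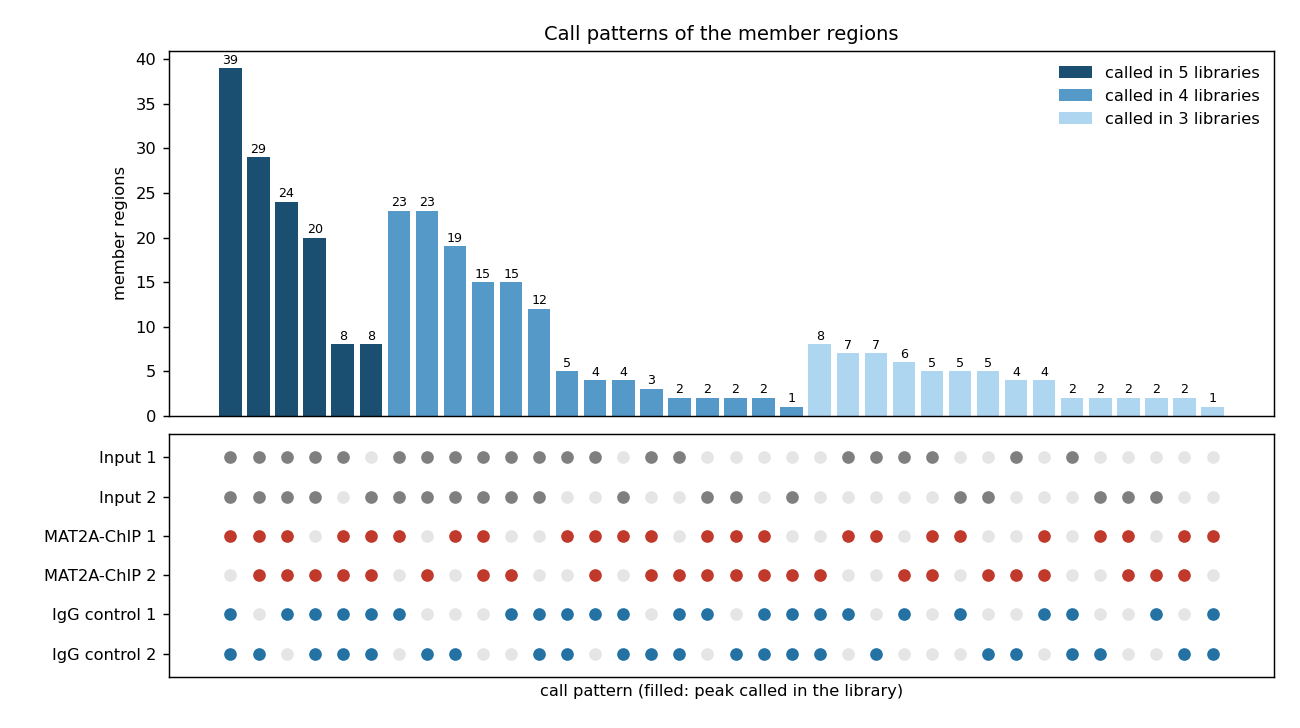
Number of members (bars, upper panel) with each combination of libraries in which a peak was called (filled dots, lower panel), for members called in 5, 4 and 3 libraries. The most frequent pattern, with 39 members, lacks only MAT2A-ChIP 2, and the patterns that lack only 1 Input library hold 8 members each.

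The plot of call patterns shows 36 of the 37 combinations that the rule allows. Of the 128 members called in 5 libraries, the library without a peak was MAT2A-ChIP 2 in 39 (30.5%), IgG control 1 in 29, IgG control 2 in 24, MAT2A-ChIP 1 in 20, and Input 1 and Input 2 in 8 each. The missing call was that of an immunoprecipitated library in 112 of these members (87.5%) and that of an Input library in 16, where 66.7% of the libraries were immunoprecipitated. MAT2A-ChIP 2 also had the shortest list. By type, the largest class was called in both Input, 1 MAT2A-ChIP and 1 IgG control library (80 members), followed by both Input with 1 MAT2A-ChIP and both IgG control (59) and both Input with both MAT2A-ChIP and 1 IgG control (53). A further 38 members had a peak in 1 library of each type.

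Among the 107 members called in both Input and in 2 immunoprecipitated libraries, the pair of immunoprecipitates could share the chromatin pool, the antibody or neither. It shared the pool in 46 (43%), with 23 from each replicate. It shared neither in 34 (31.8%), and it shared the antibody in 27 (25.2%), of which 15 were MAT2A-ChIP pairs and 12 IgG control pairs. Each of these classes covers 2 of the 6 possible pairs. The pair from one pool was thus more frequent than the pair from one antibody, which is a description of regions chosen by these calls and was not tested. The other regions called in both Input libraries numbered 95 with no immunoprecipitated peak, 114 with 1, 112 with 3 and 435 with all 4, so that the count was similar from 0 to 3 immunoprecipitated peaks and highest at complete sharing.

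Peak scores of the members lay in the middle of each list. The median member score was 103 in Input 1 and 102.7 in Input 2, which exceeded 53.2% and 53.5% of the peaks in those lists. In MAT2A-ChIP 1 and 2 the medians were 77.85 and 80.22 (percentiles 61.3 and 59.4). In IgG control 1 and 2 they were 76.32 and 81.47 (percentiles 60.7 and 58.3). The rank of the members was therefore similar with either antibody and somewhat lower in Input, whose lists hold a larger share of high scores. Averaged over the 6 libraries, the median percentile was 57.7 ± 3.56 (SD, n = 6 libraries).

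Members lay between the least and the most recurrent regions in score. In regions called in all 6 libraries the median was 293 and 257.2 in Input, 160.9 and 150.1 in MAT2A-ChIP, and 139.4 and 160.3 in IgG control. In regions called in 1 library it lay between 53.32 and 57.15 in every list, just above the threshold. Within the members, the median score in Input 1 was 77.09 at 3 libraries, 99.19 at 4 and 122.1 at 5, and in Input 2 it was 74.13, 90.12 and 113.5. The rule leaves members called in 3 libraries with at most 1 Input peak. The regions of both Input and 1 other library, which it leaves out, had Input medians of 96.34 and 95.43. No trend with recurrence is read from the Input values, and the reason for the low values at 3 libraries was not tested. MAT2A-ChIP 1 went from 74.41 to 76.09 and 80.93, MAT2A-ChIP 2 from 69.64 to 81.04 and 86.1, IgG control 1 from 74.69 to 75.35 and 83.31, and IgG control 2 from 75.01 to 75.74 and 86.05. Among members called in 3, 4 and 5 libraries, the quartile ranges of successive classes overlapped in every list.

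**Figure D2:**
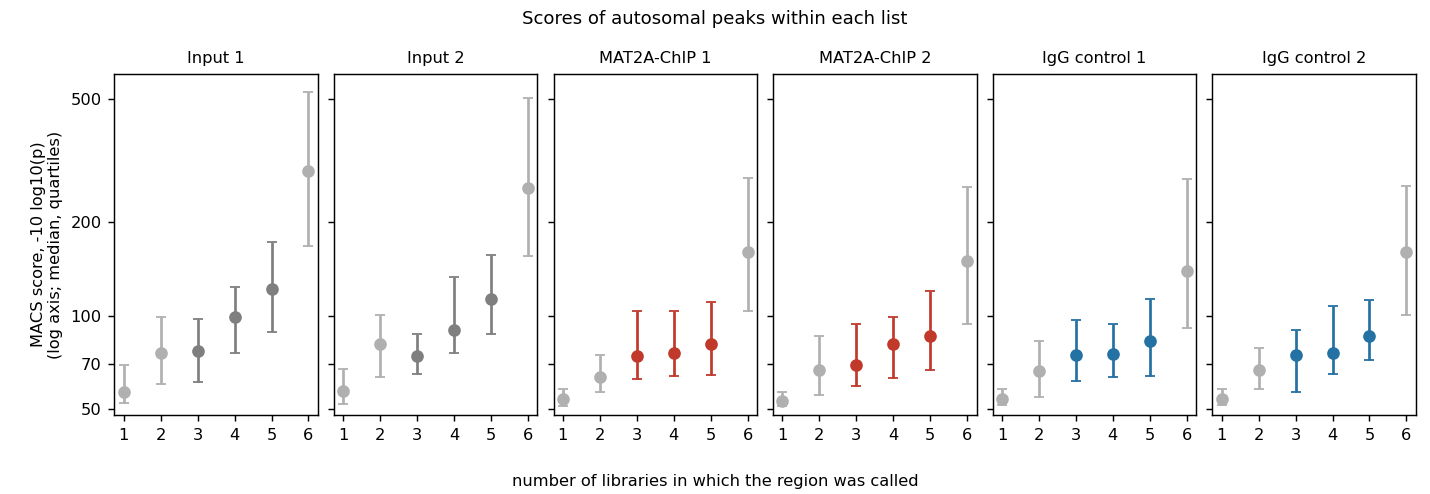
MACS score (log axis) of autosomal peaks in each library by the number of libraries in which their region was called. Points are medians and bars are quartiles, members are drawn in colour or dark grey (3 to 5 libraries), and pale points are the regions called in 1, 2 or 6. Medians of members lie between those of regions called in 1 and in 6 libraries throughout, but the Input 2 median at 3 libraries (74.13) is below that at 2 (81.24).

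A peak that the other replicate of its type also had scored higher in Input. In Input 1 the median was 113.5 for 219 members shared with Input 2 and 81.08 for the 53 that were not, and in Input 2 it was 107.7 and 78.81. Under the rule, members called in 3 libraries hold at most 1 Input peak. Shared Input peaks therefore lay only in members called in more libraries. Of the unshared ones, 31 in Input 1 and 16 in Input 2 lay in members called in 3 libraries. Sharing cannot be told apart from the number of libraries here, so nothing is read from the Input gap or its contrast with the immunoprecipitates. The immunoprecipitates differed less. In MAT2A-ChIP 1 the medians were 78.19 and 78, in MAT2A-ChIP 2 they were 84.14 and 74.28, in IgG control 1 they were 77.31 and 75.9, and in IgG control 2 they were 85.74 and 75.98. Across members, the rank correlation of scores was 0.49 between the Input libraries (Spearman, 219 members). It was 0.44 between MAT2A-ChIP 2 and IgG control 2 (117 members) and 0.37 between MAT2A-ChIP 1 and IgG control 1 (136 members), which share a pool, and 0.35 (106 members) and 0.25 (131 members) for the antibody pairs that do not. Between libraries made with the same antibody it was 0.24 for MAT2A-ChIP (110 members) and 0.13 for IgG control (112 members), and the lowest of the 15 pairs was 0.04, between Input 1 and IgG control 1 (167 members), which share a pool too. No order by pool or antibody is read from these values. These are correlations across regions, which are not independent replicates, and each pair is read over its own set of members.

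The lowest score among the libraries that called a member had a median of 62.98, and it was under 60 in 132 members (41%) and 100 or more in 17. In regions called in all 6 libraries it had a median of 115.3 and was under 60 in 10.8%. Regions called in 2 libraries had a median of 62.15 and 42.4% under 60. For the regions of both Input and 1 other library these values were 64.9 and 34.2%. This lowest score was taken across lists without ranking, and over unlike numbers of calls. The classes are therefore not compared by it. The 322 members lacked a call 578 times in all. For 75 of these missing calls (13%) the same list had a peak within 500 bp of the region, and for 303 (52.4%) it had one within 5 kb. The share within 500 bp ranged from 10.2% in IgG control 1 to 15.9% in MAT2A-ChIP 2.

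The members were short, and their peaks coincided. Member regions had a median width of 333 bp (140 to 3352 bp) and summed to 139.7 kb, compared with a median of 502 bp for regions called in all 6 libraries and 277 bp for those called in 1. Single peaks in members had median widths between 217 bp (MAT2A-ChIP 2) and 300.5 bp (Input 1). Of the 307 members with 1 peak per library, 301 held bases that lay in every one of their peaks, with a median of 171 such bases, and the centres of their peaks spread over a median of 50.5 bp. Overlap of 1 bp at the edges, the minimum that the rule asked for, was therefore rare.

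Only 15 members held more than 1 peak of a library, and 17 were wider than 1000 bp. The widest was chr15:85292181-85295532, 3352 bp with 9 peaks and scores of 95.37 and 75.31 in Input 1 and 2, 57.61 in MAT2A-ChIP 1, and 80.74 and 103.2 in IgG control 1 and 2. Next came chr17:50872416-50875527, 3112 bp with 9 peaks, with 80.68 and 149.6 in Input, 93.74 in MAT2A-ChIP 1, and 86.46 and 62.97 in IgG control. The third, chr17:51246441-51248765 with 8 peaks over 2325 bp, had 120.4 and 120.2 in Input, 213.9 in MAT2A-ChIP 1, and 154.9 and 114.5 in IgG control. The first 2 of these held 3 peaks of a single library, while the third was 1 of 13 members with 2, and MAT2A-ChIP 2 was the library without a peak in each.

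The members were not spread evenly over the genome. Of the 29 autosomes, 28 held a member and chromosome 20 held none. Chromosomes 17 (33 members), 1 (31), 6 (26), 8 (25) and 27 (20) together held 135 (41.9%), and relative to all autosomal regions the share of members was highest on chromosome 17 (15.6%) and chromosome 29 (13.1%). Another region of any class lay within 10 kb of 252 members (78.3%). That share was 77% for regions called in all 6 libraries and 73.9% for those called in 2, but 11.5% for those called in 1. The median distance to the nearest region was 1.442 kb for members and 196.9 kb for regions called in 1 library. Recurrence in several libraries and a close neighbour therefore went together in these lists.

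**Figure D3:**
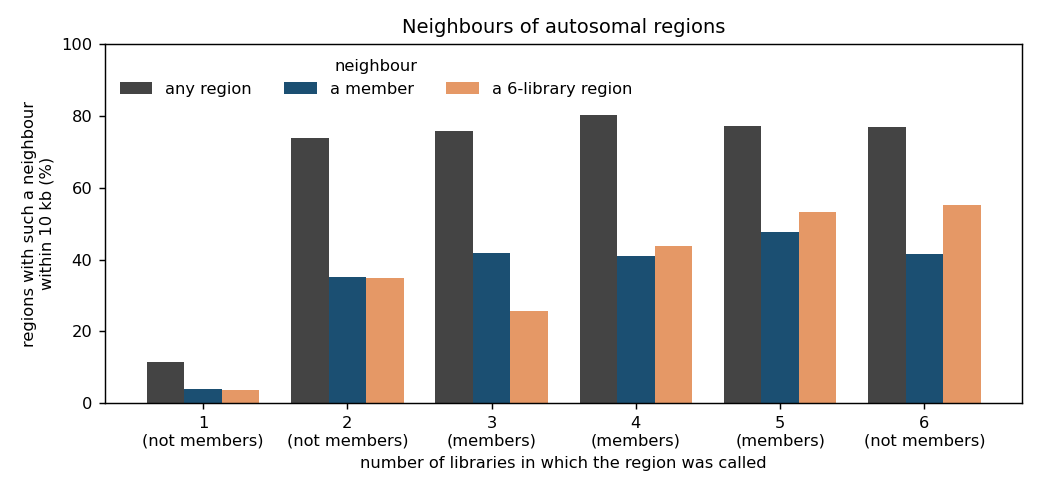
Percentage of autosomal regions with another region of any class, a member or a region called in all 6 libraries within 10 kb (bars from 0), by the number of libraries in which the region was called. Among members, 75.8% to 80.3% have a neighbour of any class, compared with 11.5% of regions called in 1 library.

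The median distance to the nearest region called in all 6 libraries was 264.7 kb for members called in 3 libraries, 16.47 kb for 4 and 8.219 kb for 5. It was 9.691 kb for the regions of both Input and 1 other library, which the rule leaves out. These are 114 of the 176 regions called in 3 libraries, so no trend with recurrence is read from the members. Outside them, the median distance was 4846 kb for regions called in 1 library, 108.3 kb for 2 and 7.166 kb for 6. The same pattern of neighbours was found inside each list. A second peak of the same list lay within 10 kb of 71.6% and 72.3% of the member peaks in Input 1 and 2, of 67.1% and 62.1% in MAT2A-ChIP, and of 61.8% and 58.5% in IgG control. For peaks of regions called in 1 library, these shares were 22.2% and 22.9% in Input, 4.06% and 4.63% in MAT2A-ChIP, and 1.87% and 3.26% in IgG control.

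When members within 100 kb of each other were chained, 202 fell into 57 clusters of 2 or more and 120 stood alone. The 8 clusters of 5 or more members held 75. The largest was chr1:145298654-145446565, where 16 members lay in 147.9 kb among 78 autosomal regions, 30 of them called in all 6 libraries. Second was chr29:30229813-30328010 with 14 members among 41 regions, 15 of them called in all 6, and the authors' list of specific peaks places peaks of this cluster in an intron of KIRREL3, an adhesion molecule of the immunoglobulin superfamily. The cluster at chr27:28559502-28874812 held 10 members and included peaks listed in an intron of RNF122, a RING-type ubiquitin ligase. The others lay at chr17:50805399-50901124 (11 members), chr17:51104768-51248765 (8), chr24:56916823-56957162 (6), chr6:6485567-6575894 (5) and chr7:56582968-56620388 (5).

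**Figure D4:**
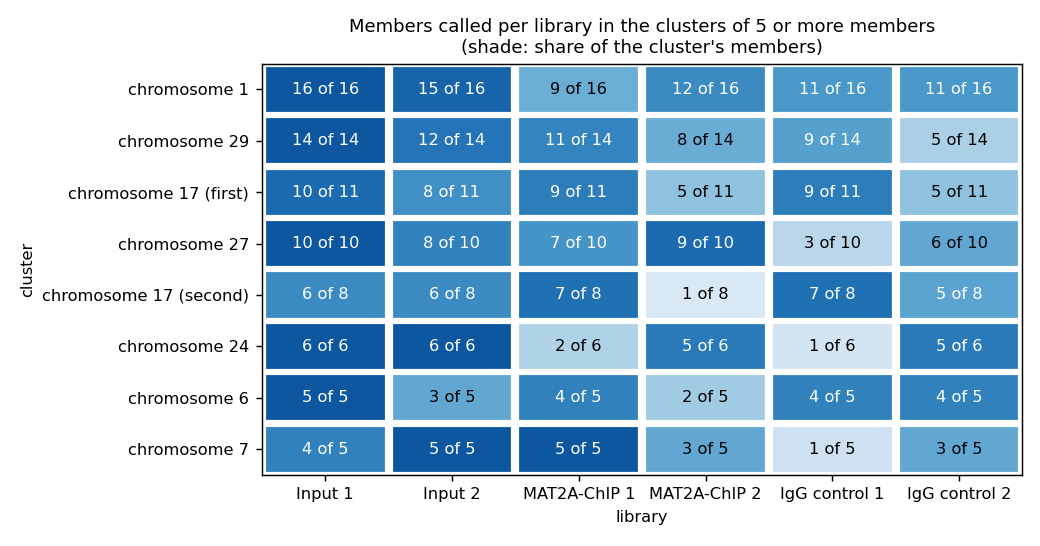
Members with a peak in each library (columns) for the 8 clusters of 5 or more members (rows), with the count in each cell and the share as shade. MAT2A-ChIP 2 has a peak in 1 of 8 members of the second cluster on chromosome 17, where MAT2A-ChIP 1 has one in 7, while on chromosome 24 the replicate 1 immunoprecipitates are the ones with few peaks.

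Clusters differed in which library lacked peaks. In the cluster of 8 members on chromosome 17, MAT2A-ChIP 1 and IgG control 1 had a peak in 7 each, IgG control 2 in 5 and MAT2A-ChIP 2 in 1. In a group of 4 members at chr17:49100597-49124030, MAT2A-ChIP 2 had none and MAT2A-ChIP 1 had all 4. The remaining 21 members on chromosome 17 differed less, with 17 called in MAT2A-ChIP 1 and 10 in MAT2A-ChIP 2. Of its 33 members, 29 lay in the 2.47 Mb from 49100597 to 51569168, and of those 29 MAT2A-ChIP 1 called 26, MAT2A-ChIP 2 called 9, Input 24 and 21, and IgG control 23 and 17. Over all 33, MAT2A-ChIP 2 had a peak in 33.3%, compared with 64% of the 289 members on the other autosomes, whereas MAT2A-ChIP 1 had one in 84.8% and 67.1%. Among all 211 autosomal regions of the chromosome, MAT2A-ChIP 2 called 60 (28.4%, compared with 29.0% over all autosomes) and MAT2A-ChIP 1 called 94 (44.5%, compared with 33.7%). Input called 46% and 38.9% and IgG control 42.7% and 36%, so MAT2A-ChIP 2 was the one library whose share there was not above its share over all autosomes. The 2 pools and their library preparations cannot be told apart here, and this chromosome was singled out after its values were seen.

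The cluster of 6 members on chromosome 24 showed another division. Both Input libraries had a peak in all 6, MAT2A-ChIP 2 and IgG control 2 in 5 each, MAT2A-ChIP 1 in 2 and IgG control 1 in 1. Here the immunoprecipitates of pool 2 had peaks with either antibody and those of pool 1 mostly had none. Over the 11 members on chromosome 24, MAT2A-ChIP 1 and IgG control 1 called 4 each, MAT2A-ChIP 2 called 8 and IgG control 2 called 9. Over all 121 autosomal regions of this chromosome the replicates of MAT2A-ChIP stood the other way, with 34.7% and 29.8% called in replicates 1 and 2, and IgG control had 26.4% and 30.6%. The cluster on chromosome 29 went the other way, with peaks of pool 1 in 11 (MAT2A-ChIP) and 9 (IgG control) of 14 members and peaks of pool 2 in 8 and 5.

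Members were also ranked by their mean percentile over the libraries that called them. First was chr22:42420511-42420676, with a score of 188.2 in Input 2, 254.4 and 222.4 in MAT2A-ChIP 1 and 2, and 286.2 and 213.3 in IgG control 1 and 2, but no peak in Input 1. The third was chr10:38462198-38462906, with 305 and 395.2 in Input, 130.1 and 144 in MAT2A-ChIP, and 200.9 in IgG control 1. The fourth was chr8:59159518-59159774, with 107.6 in Input 2, 291.6 and 143.4 in MAT2A-ChIP, and 303.3 and 222.5 in IgG control. In each of these, an IgG control peak ranked as high in its list as the MAT2A-ChIP peaks did in theirs, or higher. Over the whole top 10, however, the highest percentile among the immunoprecipitates belonged to a MAT2A-ChIP peak in 6 and to an IgG control peak in 4.

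The remaining members of this top 10 had mean percentiles from 78.3 to 86.8. Second among all was the region in ADAMTS3 described below. The fifth was chr3:121412219-121412449, with 352.3 and 384 in Input, 85.38 and 178.6 in MAT2A-ChIP and 139.6 in IgG control 2. The others were chr16:34309442-34309843, chr25:32465032-32465216, chr4:57397748-57397970, chr25:42901097-42901668 and chr8:74488361-74488660. MAT2A-ChIP 1 and 2 had a peak in 8 and 10 of them (68.9% and 60.9% of all members). The IgG control libraries had one in 6 and 8 (63.4% and 64.6%), and the Input libraries in 5 and 7 (84.5% and 78.3%). Both MAT2A-ChIP libraries were present in 8 and both IgG control libraries in 4 (34.2% and 34.8% of all members). These 10 were ranked by the scores of their called peaks, so nothing is read from the counts.

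Only few members separated the antibodies. Both MAT2A-ChIP libraries and neither IgG control library had a peak in 22 members (6.83%, interval 4.55 to 10.1%), where the background over all autosomal regions was 0.734%. Conversely, both IgG control libraries and neither MAT2A-ChIP library had one in 14 (4.35%, interval 2.61 to 7.16%), where the background was 0.518%. With minimum scores of 70 and 100 in every list the order of these counts turned, to 13 and 15 and to 11 and 14, so no direction between the antibodies is read from them. Since the members must hold at least 3 calls and these patterns supply 2, all 36 regions also had an Input peak, and nothing is read from their excess over the background.

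The 22 members with the MAT2A-ChIP pattern had modest scores. In MAT2A-ChIP 1 they ran from 50.08 to 127 with a median of 72.14, and in MAT2A-ChIP 2 from 55.53 to 181.6 with a median of 70.69. Input 1 had a peak in 20 of them and Input 2 in 17, with medians of 111.2 and 133. In replicate 1 the Input peaks ranked about as high in their list (median percentile 56.7) as the MAT2A-ChIP peaks in theirs (56.2). In replicate 2 the Input peaks ranked higher (64.3 compared with 52.3). By the mean of the MAT2A-ChIP percentiles, the 5 highest were chr3:95023638-95023947, chr29:30326321-30326583, chr26:40629774-40629950, chr7:56586840-56587022 and chr15:41033588-41033765. The region chr26:40629774-40629950 had 118.9 and 140.4 in Input and 76.2 and 156.3 in MAT2A-ChIP. On chromosome 7 the values were 119.2 and 151.9 in Input and 104.3 and 92.28 in MAT2A-ChIP, and on chromosome 15 they were 76.96 in Input 2 and 85.38 and 110.6 in MAT2A-ChIP. The first 2 of the 5 are described with their genes below.

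The 14 members with the IgG control pattern had scores that ran from 50.76 to 146.9 with a median of 72.86 in IgG control 1, and from 57.7 to 130.5 with a median of 79.2 in IgG control 2, and Input 1 had a peak in all 14 and Input 2 in 12. Their Input peaks, with medians of 79.06 and 84.72, ranked lower in their lists (median percentiles 38.8 and 41.6) than the IgG control peaks in theirs (57.4 and 56.9), unlike in the MAT2A-ChIP pattern, and this difference was not tested. By the mean of the IgG control percentiles, the highest was chr6:6575700-6575894, with 69.71 and 107.6 in Input and 146.9 and 130.5 in IgG control. The region chr1:91173638-91173902 had 285.4 and 176.1 in Input and 116.6 and 97.47 in IgG control, and chr17:35643430-35644149 had 61.37 and 133 in Input and 75.5 and 122.1 in IgG control. The other 2 of the 5 highest were chr21:1931986-1932492 and chr3:13190955-13192025.

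Neither Input library had a peak in 17 members (5.28%), 15 called in 3 libraries and 2 in 4. Over all autosomal regions this share was 62.2%, and the demand for 3 or more calls sets the members below it. Every one of the 17 had a peak with both kinds of antibody, as the rule requires at least 3 calls. MAT2A-ChIP 1 was the library most often missing, in 8, all of which were called in MAT2A-ChIP 2 and both IgG control libraries. Among these was a pair of adjacent regions on chromosome 25. The region chr25:17729944-17730465 had 103.4 in MAT2A-ChIP 2 and 55.05 and 138.2 in IgG control 1 and 2, and chr25:17730787-17731029, 0.321 kb away, had 178.6 in MAT2A-ChIP 2 and 55.1 and 272 in IgG control. The region chr16:34309442-34309843 was of the same kind, with 256.1 in MAT2A-ChIP 2 and 84.97 and 177 in IgG control.

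Called in all 4 immunoprecipitated libraries and in neither Input were 2 members, and the authors' list pairs both with noncoding RNA genes. The region chr25:32469522-32469698 had 111 and 76.19 in MAT2A-ChIP and 54.57 and 59.14 in IgG control. RN45S and RN18S1, which are listed downstream of it, encode the ribosomal RNA precursor and the small-subunit ribosomal RNA, genes that exist in many copies. A further member 4.305 kb away, chr25:32465032-32465216, had 140.3 in Input 1, 169.8 and 248.8 in MAT2A-ChIP, and 193.9 and 109.2 in IgG control. The region chr4:61174850-61175090 had 86.39 and 98.89 in MAT2A-ChIP and 64.68 and 174.7 in IgG control. It is listed with copies of the microRNA genes MIR2887 and MIR2904 and with AOAH, which encodes an enzyme that inactivates bacterial lipopolysaccharide. In the former the MAT2A-ChIP percentiles (74.6 and 56.9) were above those of IgG control (27 and 36.3), and in the latter the highest of the 4 was IgG control 2 (85.1).

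The filter that the study used for specific peaks takes MAT2A-ChIP 1 peaks that overlap a MAT2A-ChIP 2 peak, both free of an overlapping peak of the same replicate's control, with Input and IgG control applied separately. Applied to the lists, it passed 76 peaks, of which 45 lay on autosomes from 1 Mb. Members held 31 of these, 1 each in 31 members (9.63%), where all autosomal regions held 0.971 per 100. The filter needs a peak in both MAT2A-ChIP lists, which a region called in 1 library cannot have, so nothing is read from this excess. Regions called in 2 libraries held 12 and regions called in all 6 held 2. Of the 31 members, 23 passed against IgG control only, 8 against Input only and 0 against both, and 13, 17 and 1 were called in 3, 4 and 5 libraries. Specificity among the members was thus always against a single kind of control, which follows closely from the demand for 3 or more calls.

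The authors' list pairs 20 of the 31 members with a gene by an intron or by position within 100 kb, and 11 with none. That list was drawn up from these same libraries, so a gene's presence on it is no independent evidence, and the names are used here for identity only. The groups by role below were drawn up with these pairings known, so how many of a group's genes were paired says nothing about the group and serves only to order the description. It gives 33 gene names for these members, of which 26 are on the same chromosome in a RefSeq table of the later assembly ARS-UCD2.0, 3 are on another (SRY, VAMP7 and RN18S1) and 4 were not matched. Of the 20 members, 10 had a peak in both Input libraries, 3 in 1 and 7 in neither, and 12 had none in IgG control, 6 had 1 and 2 had both. The filter and the demand for 3 or more calls largely set this split, so nothing is read from it. Their scores ran from 50.08 to 184.6 in MAT2A-ChIP 1 (median 82.45) and from 57.63 to 271.4 in MAT2A-ChIP 2 (median 72.01).

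**Figure D5:**
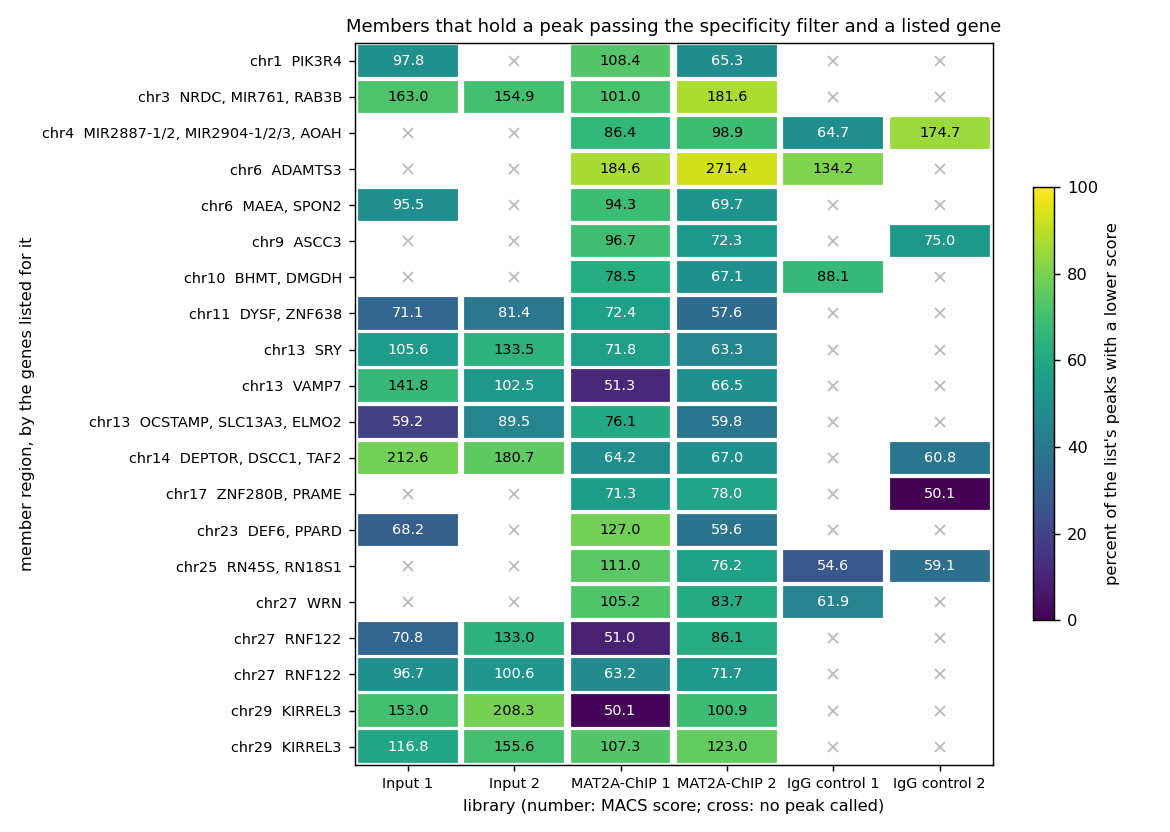
MACS scores (numbers) of the 20 members that hold a peak passing the filter and a listed gene, by library, coloured by the percentage of the library's list with a lower score. Crosses mark libraries with no peak. ADAMTS3 has the highest MAT2A-ChIP scores (184.6 and 271.4), and each row with both IgG control columns empty has at least 1 Input score.

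Of the adhesion and matrix list, 3 of 4 genes were paired, with 4 members. The region chr6:89211024-89211175 lies in an intron of ADAMTS3, which encodes a protease that trims procollagen. It had scores of 184.6 and 271.4 in MAT2A-ChIP and 134.2 in IgG control 1, with no peak in Input or in IgG control 2. Its IgG control peak ranked above 80.6% of that list, while its MAT2A-ChIP peaks ranked above 87% and 92.9% of theirs. In KIRREL3, chr29:30326321-30326583 had 116.8 and 155.6 in Input and 107.3 and 123 in MAT2A-ChIP. A second KIRREL3 member, chr29:30306698-30307030, had 153 and 208.3 in Input and 50.08 and 100.9 in MAT2A-ChIP, so that the replicates of the antibody stood at percentiles 0.812 and 68.9. SPON2, a secreted matrix protein, is listed together with MAEA at chr6:109299997-109300255, which had 95.55 in Input 1 and 94.34 and 69.72 in MAT2A-ChIP.

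Of the DNA repair and ubiquitin list, 4 of 6 genes were paired, with 5 members. WRN, a helicase of the RecQ family, holds chr27:26327917-26328193 in an intron, with 105.2 and 83.66 in MAT2A-ChIP and 61.93 in IgG control 1. ASCC3, a helicase that acts in the repair of alkylated DNA, holds chr9:50002986-50003198 in an intron, with 96.73 and 72.35 in MAT2A-ChIP and 75.01 in IgG control 2. Neither had an Input peak. The other members of this group were of the opposite kind, with Input and without IgG control. MAEA, a subunit of a ubiquitin ligase complex, shares the region given above for SPON2. The RNF122 members had 70.75 and 133 in Input and 51.05 and 86.1 in MAT2A-ChIP at chr27:28807349-28807650, and 96.71 and 100.6 in Input and 63.22 and 71.67 in MAT2A-ChIP at chr27:28855601-28855918.

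The 4 genes of the trafficking and membrane repair list, which includes the peptidase gene NRDC, were paired with 2 members. The region chr3:95023638-95023947 lies in an intron of NRDC, a metallopeptidase, and is listed near RAB3B, a small GTPase of regulated secretion, OSBPL9, of a family of lipid transfer proteins, and the microRNA gene MIR761. It had 163 and 154.9 in Input and 101 and 181.6 in MAT2A-ChIP, the highest mean of the MAT2A-ChIP percentiles (71.2 and 87.2) among members without an IgG control peak, with Input percentiles of 71.9 and 70. DYSF encodes dysferlin, which reseals muscle membranes, and its intron holds chr11:13095063-13095537, listed with the zinc finger gene ZNF638 as well. This region had 71.07 and 81.39 in Input and 72.44 and 57.63 in MAT2A-ChIP.

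Of the signalling list, 2 of 5 genes were paired, with 2 members. DEPTOR, an inhibitor of mTOR, holds chr14:83670667-83672372 in an intron, with DSCC1 and TAF2 listed upstream. This is the only one of the 31 members called in 5 libraries, with 212.6 and 180.7 in Input, 64.23 and 66.96 in MAT2A-ChIP and 60.81 in IgG control 2. Its IgG control peak joined the region by chaining and did not overlap the MAT2A-ChIP peak, so the peak passed the filter. ELMO2, which takes part in the activation of Rac, is listed with SLC13A3, a transporter of dicarboxylates, and OCSTAMP at chr13:75933132-75933409, which had 59.17 and 89.49 in Input and 76.09 and 59.79 in MAT2A-ChIP.

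Of the list for nuclear receptors and transcription, 2 of 3 genes were paired, with the same member. PPARD encodes a nuclear receptor for fatty acids, and DEF6, known from T cell signalling, is neither a nuclear receptor nor a transcription factor, so that PPARD is the gene of this kind. The region chr23:9224935-9225323, listed upstream of both, had 68.24 in Input 1 and 127 and 59.6 in MAT2A-ChIP, at percentiles of 29.4 for Input 1 and of 78.7 and 38.5 for MAT2A-ChIP. In the methionine cycle list, BHMT, which remethylates homocysteine with betaine, and DMGDH, which oxidises the dimethylglycine that results, were both paired with chr10:10105974-10106149. That member had 78.52 and 67.08 in MAT2A-ChIP and 88.09 in IgG control 1, its highest percentile (66.9) being that of the control antibody.

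Outside these groups, PIK3R4, the regulatory subunit of a lipid kinase in autophagy, is listed with chr1:153217771-153217967, which had 97.78 in Input 1 and 108.4 and 65.33 in MAT2A-ChIP. The zinc finger gene ZNF280B holds chr17:51421412-51422174 in an intron, with PRAME, an antigen of testis and tumours, listed upstream. This region had 71.32 and 77.97 in MAT2A-ChIP and 50.1 in IgG control 2, the last near the bottom of its list (percentile 0.373). On chromosome 13, chr13:5355845-5356192, listed with SRY, had 105.6 and 133.5 in Input and 71.85 and 63.3 in MAT2A-ChIP, and chr13:14640479-14641516, listed with VAMP7, had 141.8 and 102.5 in Input and 51.3 and 66.52 in MAT2A-ChIP. The RefSeq table puts both of these genes on another chromosome, and the reason was not tested. Over the 20 members, MAT2A-ChIP 1 stood at the higher percentile in 10 and MAT2A-ChIP 2 in the other 10.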

How the data were processed

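The data were 1 peak list for each of 6 libraries. Per the study's methods and processing notes, the authors trimmed adapters, ran Bowtie 1.1.2 against bosTau8 (scaffolds left out) and used MACS with default settings on each library separately. The authors deposited each peak's position and its score, -10 times the log10 of its p-value, which starts at 50 (p-value of 1e-05). How reads with several alignments were treated can change which repeated places carry peaks. Because the lists hold no read counts, depth and precision per region are unknown.

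Here peaks were joined with a minimum overlap of 1 bp (Python 3.11.15, numpy 2.4.6, scipy 1.17.1). The number of regions, 5619, was checked against bedtools 2.31.1, and the joining was tested on simulated data. No statistical test was run, since calls in all 6 lists chose the members. The members, gene lists and named regions were chosen with earlier results of these data known. Regions are named when they had 1 of the 10 highest mean score percentiles, 1 of the 5 highest mean percentiles over the libraries of the antibody in either antibody pattern, a peak passing the study's filter with a listed gene, 1 of the 3 greatest widths or the most peaks of a library, or the least distance to the start limit. The cluster regions, the members without Input peaks and the chromosomes 17, 24 and 25 were named after their values were seen. Alternatives were an overlap of 50%, gaps up to 500 bp, score minimums of 70 and 100, equally long lists, no start limit, the regions of both Input and 1 other library kept, and each library left out. Gene names come from the authors' list of specific peaks, whose values were not used, and a RefSeq table (ARS-UCD2.0) was used for names and chromosomes only. Sequence was not analysed here.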

Additional observations from a re-analysis of the deposited data

How the results depend on the processing

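The number of members (322) was 169 with a minimum score of 100 and ranged from 192 to 298 when 1 library was left out, where fewer libraries also leave fewer calls to count. It fell by more than 1.5 times without MAT2A-ChIP 2, MAT2A-ChIP 1 or IgG control 1. Without an Input library the exclusion by both Input calls cannot apply, so the libraries are not compared by these counts. The 22 members with peaks in both MAT2A-ChIP and neither IgG control became 13 with a minimum score of 70 and 11 with 100, and ranged from 17 to 21 without an Input library. The 14 with the opposite pattern stayed between 14 and 18, with 15 and 14 at these score minimums, so that the order of the patterns turned. The share of members called in both Input libraries (68%) was 74% with a minimum score of 100 and 76.4% when regions of both Input and 1 other library were kept, and 66% to 67.6% without an immunoprecipitated library. The mean median percentile (57.7) was 67.2 and 78.8 with minimum scores of 70 and 100, which remove the lowest scores by construction. The mean median peak width (265 bp) stayed within 1 SD (29.1 bp) under every alternative tried, from 251 to 290 bp. The patterns of an antibody gave no value without a library of either antibody, nor the share of both Input libraries without an Input library. No paired analysis was run because no result comes from a test, and pairs from one pool were only described. The cause of the changes with score was not tested, and depth, which is unknown for a single region, limits every statement on a missing peak.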

Other observations

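Many peaks of a list carried an identical score. In MAT2A-ChIP 1 the 2094 peaks had 1498 distinct scores, and 74.41 occurred 24 times. In IgG control 1 the score of the peak in ADAMTS3, 134.2, was the most frequent of the list and occurred 14 times. Ranks of members within a list therefore include ties.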
